A study of Mus musculus with 3 samples.

Results

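The genes described encode 10 core transcription factors of blood formation, read in LT-HSCs (long-term haematopoietic stem cells) of irradiated and non-irradiated mice. They were chosen by gene symbol as Gata1, Gata2, Tal1, Lmo2, Runx1, Fli1, Erg, Spi1, Cebpa and Gfi1b, and 10 of these 10 had a probe set among the 23185 named genes of the array. The cells came from bone marrow of female C57Bl/6 mice aged 8 to 10 weeks. The 3 groups were mice given 8 Gy of total body irradiation (TBI) as FLASH, mice given 8 Gy of TBI at CDR, and non-irradiated mice, with 1 Affymetrix array each. FLASH gives the dose at a very high dose rate, and CDR is read here as conventional dose rate, a reading the labels do not state. The labels place the isolation of 10000 LT-HSCs at 15 days after TBI. The labels give neither the number of mice behind an array nor the sorting gate.

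LT-HSCs are the rare marrow cells that renew the blood for life. A set of factors known as the heptad (Gata2, Tal1, Lmo2, Lyl1, Runx1, Fli1 and Erg) binds together at regulatory sites of stem and progenitor cells and keeps their programme active. Gata1 and Gfi1b act in red cells and megakaryocytes, Spi1 (PU.1) in myeloid and B cells, and Cebpa in granulocytes and monocytes. GATA1 and PU.1 are known to oppose each other's activity, and GATA1 takes over sites held by GATA2 when red cell precursors mature.

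Promoter sequence is shown for the pair of GATA genes, which passed 1.5-fold on at least 1 irradiated array, and for Tal1, Gfi1b and Erg, the genes with a window that holds a GATA match. The windows are the 250 bases before an annotated start, taken from the RefSeq promoter table of build GRCm38.p6 and written 5′ to 3′ on the gene's strand. Capitals mark every match, on either strand, to GATAA (GATA factors), CAGCTG and CAGATG (E-boxes, read by TAL1 with its partners), GGAAG (ETS factors), GAGGAA (PU.1), TGTGGT (RUNX factors) or TTGCNNAA (C/EBP factors). A GAGGAA followed by G would also hold GGAAG. Gata1 lies on the X chromosome and Gata2 on chromosome 6.
Gata1 (chrX:7967911-7968160, minus strand): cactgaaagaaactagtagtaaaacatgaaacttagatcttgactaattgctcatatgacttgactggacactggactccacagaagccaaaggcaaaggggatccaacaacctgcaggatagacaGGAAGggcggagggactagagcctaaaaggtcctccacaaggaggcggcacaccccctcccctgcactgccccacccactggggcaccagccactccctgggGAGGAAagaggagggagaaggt
Gata2, first start (chr6:88193641-88193890, plus strand): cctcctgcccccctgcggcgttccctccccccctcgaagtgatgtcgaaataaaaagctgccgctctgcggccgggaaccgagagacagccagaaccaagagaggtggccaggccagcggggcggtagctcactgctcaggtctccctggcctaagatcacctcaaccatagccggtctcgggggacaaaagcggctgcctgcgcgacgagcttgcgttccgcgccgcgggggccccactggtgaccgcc
Gata2, second start (chr6:88198414-88198663, plus strand): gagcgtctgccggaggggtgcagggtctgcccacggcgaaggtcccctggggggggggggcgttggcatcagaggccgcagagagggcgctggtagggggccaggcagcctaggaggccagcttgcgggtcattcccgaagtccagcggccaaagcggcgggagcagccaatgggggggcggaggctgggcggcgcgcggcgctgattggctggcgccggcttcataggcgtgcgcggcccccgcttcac
Tal1, first start (chr4:115056176-115056425, plus strand): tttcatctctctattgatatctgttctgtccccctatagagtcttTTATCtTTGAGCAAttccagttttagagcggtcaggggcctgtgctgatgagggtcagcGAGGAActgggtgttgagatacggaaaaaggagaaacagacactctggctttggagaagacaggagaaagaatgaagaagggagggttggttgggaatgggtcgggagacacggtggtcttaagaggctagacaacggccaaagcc
Erg, start 3 (chr16:95459349-95459598, minus strand): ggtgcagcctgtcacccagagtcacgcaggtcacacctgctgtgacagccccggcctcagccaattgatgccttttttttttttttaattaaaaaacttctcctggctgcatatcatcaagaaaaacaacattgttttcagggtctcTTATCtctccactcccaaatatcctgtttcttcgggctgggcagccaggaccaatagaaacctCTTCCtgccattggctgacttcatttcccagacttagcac
Gfi1b (chr2:28621983-28622232, minus strand): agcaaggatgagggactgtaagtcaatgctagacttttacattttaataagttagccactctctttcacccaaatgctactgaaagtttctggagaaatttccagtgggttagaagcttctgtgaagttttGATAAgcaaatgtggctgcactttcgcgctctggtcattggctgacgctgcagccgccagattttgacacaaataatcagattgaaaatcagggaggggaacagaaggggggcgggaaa

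The Gata1 window held GGAAG at -124 to -120 and GAGGAA at -22 to -17, counted back from the start. No match to any of the 7 motifs lay in either Gata2 window. The Tal1 window held GATAA on the reverse strand at -205 to -201, a C/EBP match at -199 to -192 and GAGGAA at -146 to -141, the Gfi1b window held GATAA at -119 to -115, and the third Erg window held it on the reverse strand at -103 to -99. The table gave 12 windows for 7 of the 10 genes, with no entry matched for Lmo2, Fli1 and Spi1. GATAA was found in 3 of the 12 windows and in 22.6% of the 32851 windows of the table, GGAAG in 5 and in 64.1%, GAGGAA in 3 and in 23.3%, and TTGCNNAA in 3 and in 9.56%. The E-box CAGCTG was in 0 of the 12 and in 13% of all windows, the E-box CAGATG in 0 and in 14.4%, and the RUNX motif TGTGGT in 0 and in 14%. These letters describe the windows only, and the array has 1 probe set per gene, so that transcripts from different starts are not told apart.

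Levels are the authors' processed values on a log2 scale, and a difference is the level on one array minus that on another. With 1 array per group no test was possible, and "higher" or "lower" refers to these arrays alone. A gene counted as detected when its higher array read above a level set by 1368 odorant, pheromone and amine receptor genes, assumed silent in marrow (4.21 on FLASH, 4.16 on CDR and 4.15 on non-irradiated). The 10 factor genes lay well above it, between 7.40 and 10.49 on FLASH, 7.52 and 10.64 on CDR, and 7.72 and 10.54 on non-irradiated. Exact ties between arrays were frequent, and 39.8% of named genes held one value on all 3 arrays. FLASH and non-irradiated held the same value for 0 of the 10 genes and 34.1% of detected genes, CDR and non-irradiated for 1 and 35%, and FLASH and CDR for 2 and 43.2%.

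The LT-HSC label was set against marker genes. Of 10 markers of these cells, 8 had a named probe set, and 8 of 8 were above the detection level on each array, with a mean level of 6.43 on FLASH, 6.35 on CDR and 7.0 on non-irradiated. Fgd5 and Hoxb5 stood close to the detection level, at 4.35 and 4.56 on FLASH, 4.47 and 4.56 on CDR, and 4.64 and 4.75 on non-irradiated. Genes that long-term stem cells carry at low levels were read as well. Flt3, a receptor of multipotent progenitors, stood at 7.22, 7.64 and 8.69 on the FLASH, CDR and non-irradiated arrays, Cd48 at 10.05, 10.18 and 9.7, and Mpo, a granule enzyme of myeloid precursors, at 12.45, 12.52 and 12.36. Cd34, another progenitor marker, stood at 10.81, 10.92 and 11.25, while Il7r was under the detection level on each array. Flt3, Cd48, Cd34 and Mpo were not low on these arrays, so the markers do not establish a pure LT-HSC sample. Of 5 measured T cell markers, 1 was above the detection level on FLASH, 1 on CDR and 2 on non-irradiated; Cd3e, Cd3g and Cd3d were under it on the 3 arrays, while Cd8a stood just above it. Of 5 B cell markers, 3 were above it on each array, and Cd79b, a subunit of the B cell receptor, read 8.05 on FLASH and 8.58 on CDR, against 9.04 on non-irradiated. Of 4 plasma cell markers, 3 were above it on each array. Jchain, the joining chain of secreted antibodies, read 9.37 on FLASH and 7.65 on CDR, against 9.79 on non-irradiated, and Mzb1, an antibody assembly factor, 6.06 and 5.22, against 6.5. Fewer cells of a type and less RNA per cell cannot be told apart in these bulk samples.

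Set against the non-irradiated array, the 6 heptad genes read lower on both irradiated arrays, while Gata1 and Cebpa read higher and Gfi1b and Spi1 lay close to it. At least 1.5-fold was reached by 1 gene in each direction on the FLASH array (Gata1 higher, Gata2 lower) and by 1 on the CDR array (Gata2 lower). Over all detected genes, that fold was passed upward by 3.55% and downward by 5.23% on FLASH, and upward by 3.19% and downward by 5.38% on CDR. At 2-fold the count was 0 of 10 in both comparisons, where 1.16% of detected genes were higher and 1.73% lower on FLASH, and 0.765% higher and 2.35% lower on CDR. By any amount, 3 of the 10 were higher on FLASH and 3 on CDR, against 33.4% and 34.7% of detected genes. The 2 comparisons share the non-irradiated array. The median difference of the 10 was -0.17 on FLASH and -0.18 on CDR, and that of all detected genes 0.00 in both comparisons.

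**Figure D1:**
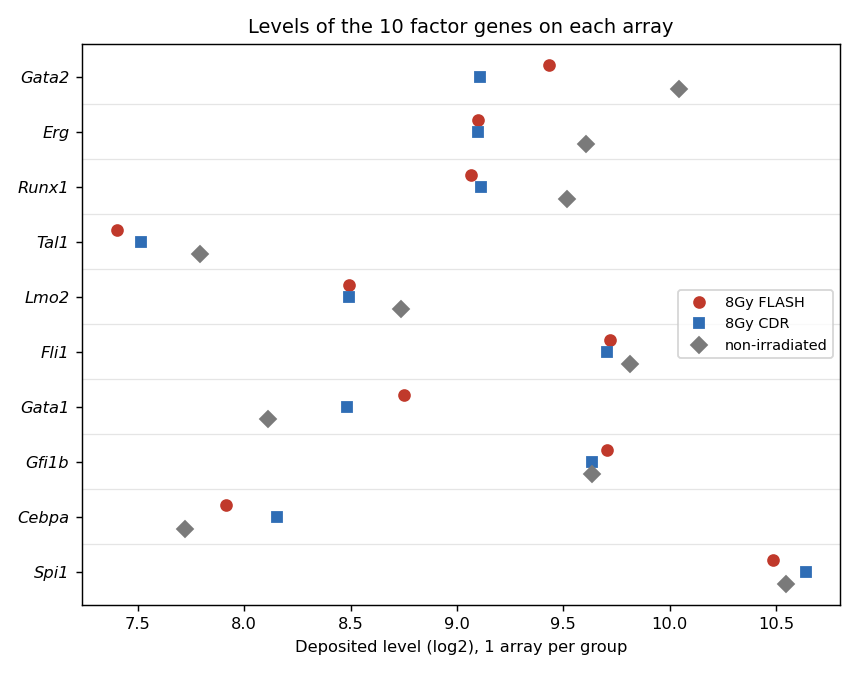
Deposited log2 level (x axis) of each of the 10 factor genes (rows) on the 8Gy FLASH, 8Gy CDR and non-irradiated arrays, 1 point per array. Positions are to be compared within a row; the non-irradiated point lies to the right of both irradiated points for Gata2, Erg, Runx1, Tal1, Lmo2 and Fli1, and to their left for Gata1 and Cebpa.

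Gata2, a zinc finger factor needed for stem cell survival and for mast cells, read 9.43 on the FLASH array and 9.11 on the CDR array, against 10.04 on the non-irradiated array. It was the lowest of the 10 genes by its difference in both comparisons, at -0.61 (1.53-fold lower) on FLASH and -0.94 (1.92-fold lower) on CDR. Of all detected genes, 4.88% lay as low or lower on the FLASH array and 2.6% on the CDR array. The FLASH level stood between the other two.

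Erg, an ETS factor of stem cell maintenance, read 9.10 on the FLASH array and 9.10 on the CDR array, against 9.61 on the non-irradiated array. The irradiated arrays held the same deposited value, 0.51 below the non-irradiated one on the log2 scale (1.43-fold). Runx1, the DNA-binding subunit of core binding factor, read 9.07 on FLASH and 9.11 on CDR, against 9.52 on the non-irradiated array, with differences of -0.45 and -0.41.

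Tal1, a basic helix-loop-helix factor that nucleates the complex, read 7.40 on the FLASH array and 7.52 on the CDR array, against 7.79 on the non-irradiated array. Its differences were -0.39 and -0.28. Lmo2, the LIM-domain bridge that binds TAL1 and GATA proteins without touching DNA, read 8.49 on both irradiated arrays, again tied, and 8.74 on the non-irradiated one, a difference of -0.25. Fli1, the ETS relative of Erg, was the nearest of these 6 to its non-irradiated level. It read 9.72 on FLASH and 9.7 on CDR, against 9.81, with differences of -0.10 and -0.11.

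The 6 heptad genes thus lay lower in 6 of 6 cases in each comparison, with 0 tied. Of detected genes, 32.5% were lower by any amount, 33.4% higher and 34.1% tied on the FLASH array. On the CDR array these shares were 30.4%, 34.7% and 35%. The medians of the 6 genes were -0.42 on FLASH and -0.34 on CDR. By at least 0.32 log2 units, 4 were lower on the FLASH array (Gata2, Erg, Runx1 and Tal1) and 3 on the CDR array (Gata2, Erg and Runx1), against 11.4% and 10.9% of detected genes. Direction was the same for 6 of 6 under quantile normalisation and cyclic loess. It was also the same under median centring, which moved all genes up alike, by 0.02 on FLASH and 0.06 on CDR. An offset before the log cannot change a direction. Lyl1, the remaining heptad factor and a close relative of Tal1, read 8.19 on FLASH and 8.20 on CDR, against 8.28 on the non-irradiated array, at -0.09 and -0.07. Markers of LT-HSCs had lower mean levels on the same arrays (6.43 and 6.35, against 7.0). Of the 8 measured, 6 were lower by any amount on FLASH and 7 on CDR, with 1 tied in each and Slamf1 higher on FLASH. At least 1.5-fold lower were 3 on each, against 5.23% and 5.38% of detected genes. Dendritic cell markers had a median difference of 1.91 on FLASH over 5 detected genes and of 0.996 on CDR over 4, with mean levels of 7.24 and 6.25, against 5.54. Plasma cell markers had a median of -0.41 on FLASH and -1.29 on CDR over 3. Progenitor markers had medians of -0.44 and -0.34 over 3 detected genes. Endothelial markers had medians of 0.60 on FLASH and -0.07 on CDR over 5, and pointed both ways on each array. The part of these cells in the lower heptad levels was not tested.

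Among the 4 lineage factors, Gata1, the red cell and megakaryocyte factor, read 8.75 on the FLASH array and 8.48 on the CDR array, against 8.11 on the non-irradiated array. The difference was 0.63 on FLASH (1.55-fold higher) and 0.37 on CDR (1.29-fold higher). With an offset of 32 before the log, the FLASH difference was 0.58, just under 1.5-fold. As high or higher were 3.0% of detected genes on FLASH and 7.84% on CDR. Gata1 and Gata2 lay on opposite sides of the non-irradiated array on both irradiated arrays, with Gata1 highest on FLASH and Gata2 lowest on CDR. By at least 0.32 log2 units, 1 of the 10 genes was higher on FLASH (Gata1) and 2 on CDR (Gata1 and Cebpa), against 9.86% and 9.78% of detected genes.

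Cebpa, the factor that opens the granulocyte programme, read 7.91 on FLASH and 8.15 on CDR, against 7.72 on the non-irradiated array. It was higher by 0.19 on FLASH and by 0.43 (1.35-fold) on CDR, where 5.83% of detected genes lay as high or higher. Spi1 read 10.49 on FLASH and 10.64 on CDR, against 10.54, with differences of -0.06 and 0.10. Gfi1b, a zinc finger repressor of the red cell and platelet lineages, read 9.71 on FLASH and 9.64 on CDR, and its non-irradiated value of 9.64 was tied with CDR. Its difference on FLASH was 0.07.

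**Figure D2:**
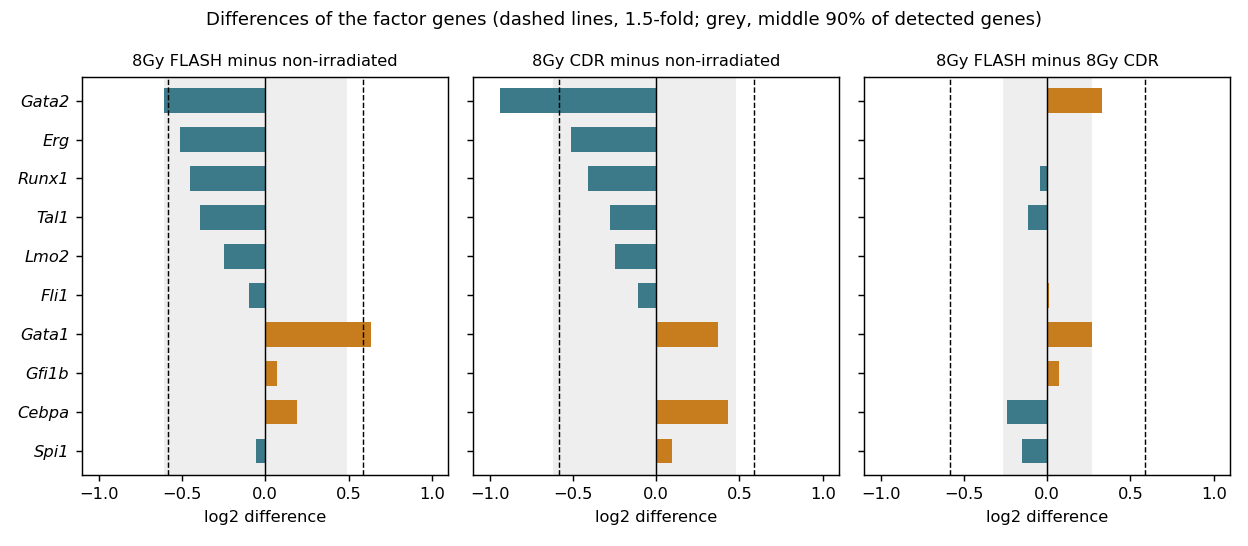
Log2 differences (x axis) of the 10 factor genes (rows) in the 3 comparisons named above the panels, 1 array per group. Bars to the right mean higher on the array named first, dashed lines mark 1.5-fold, and grey spans the 5th to the 95th percentile of detected genes; against the non-irradiated array Gata2 passes the left line on both irradiated arrays (-0.61 and -0.94) and Gata1 the right line on FLASH (0.63).

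In pattern over the 3 arrays, the genes nearest to Gata1 among 11975 others were Lrg1, Gpr89 and Aunip, at Euclidean distances of 0.0083, 0.012 and 0.0121 log2 units after each gene was centred on its own mean. For Gata2 they were Smox, Tmem98 and Hyal3, at 0.0147, 0.0268 and 0.031. Smox read 5.38 on FLASH and 5.05 on CDR, against 6.01 on the non-irradiated array. With 3 points per gene, such a likeness is a description of these arrays.

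Partner proteins join these factors in complexes. Of 15 detected partner genes, 0 were at least 1.5-fold higher or lower on either irradiated array against the non-irradiated one, where 3.55% of detected genes were higher and 5.23% lower on FLASH, and 3.19% and 5.38% on CDR. Ldb1, which joins LMO2-bound complexes into loops, read 10.03 on all 3 arrays, and Cbfb, the partner of RUNX1, 8.37, both exact ties of the processed values. Zfpm1 (FOG1), the cofactor of GATA1, read 8.18 on FLASH and 7.95 on CDR, against 8.2 on the non-irradiated array. Cbfa2t3 (ETO2), a corepressor of the TAL1 complex, read 8.43 on FLASH and 8.08 on CDR, against 8.46, so that it was 0.38 lower on CDR and 0.03 lower on FLASH on the log2 scale. Hdac1, a histone deacetylase, was 0.27 higher on FLASH and 0.20 higher on CDR.

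Relatives of Fli1, Erg and Spi1 in the ETS family had medians of -0.11 on the FLASH array and -0.15 on the CDR array over 17 detected genes. By any amount, 10 were lower and 4 higher on FLASH, and 11 lower and 3 higher on CDR. Of all detected genes, 32.5% and 30.4% were lower, and 33.4% and 34.7% higher. At least 1.5-fold higher were 1 on FLASH and 1 on CDR, Etv5 in both (0.80 and 0.72), and at least 1.5-fold lower were 0 on FLASH and 1 on CDR. The shares of all detected genes were 3.55% and 3.19% for higher and 5.23% and 5.38% for lower. The lower gene was Ets1, a factor of lymphoid cells, which read 7.05 on FLASH and 6.26 on CDR, against 7.28 on the non-irradiated array. Elk3 was lower on both, at -0.40 on FLASH and -0.35 on CDR, and Spic, a PU.1-related factor of red pulp macrophages, was at -0.56 and -0.29.

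Among 12 other detected paralogues, Gata3, a factor of T cells that stem cells also express, read 5.96 on FLASH and 5.48 on CDR, against 6.49 on the non-irradiated array. Its log2 differences were -0.52 on FLASH and -1.01 on CDR. Cebpe, the granulocyte relative of Cebpa, was 0.77 higher on FLASH and 0.88 higher on CDR, and Gfi1, the paralogue of Gfi1b that acts in granulocytes and stem cells, 0.25 and 0.56 higher. Runx3 was at -0.16 and -0.12.

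Of 19 other detected blood factors, 2 were at least 1.5-fold lower on FLASH and 3 on CDR, against 5.23% and 5.38% of detected genes. As much higher was 1 on each, against 3.55% and 3.19%. By any amount, 12 were lower, 2 higher and 5 tied in each comparison. Of detected genes, 32.5% were lower on FLASH and 30.4% on CDR. The medians of the 19 were -0.12 and -0.17, so that lower readings were not particular to the heptad genes. Hlf, a factor of stem cell maintenance, had a log2 difference of -1.90 on FLASH and -2.0 on CDR, and Meis1, a homeobox partner of HOXA9, -0.84 and -1.26. Klf1, the red cell factor downstream of GATA1, read 7.59 on FLASH and 7.13 on CDR, against 6.15 on the non-irradiated array. Its order over the arrays, highest on FLASH and lowest on the non-irradiated array, was that of Gata1.

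Of 18 detected genes that GATA1 is known to activate in red cells, 15 read higher by any amount on FLASH and 15 on CDR, against 33.4% and 34.7% of detected genes. Tied were 1 of the 18 in each comparison, against 34.1% and 35% of detected genes. Of these 18, 9 passed 1.5-fold upward on FLASH and 8 on CDR, against 3.55% and 3.19%, 0 passed it downward on either, and the medians were 0.53 and 0.45. Ermap, a red cell membrane protein, was at 1.73 on FLASH and 1.40 on CDR, Rhag, the Rh-associated glycoprotein, at 1.67 and 1.62, and Hbb-bs, a beta globin, at 1.68 and 1.51. Nfe2, which serves red cells and platelets, was lower, at -0.53 and -0.54. The 5 measured erythroblast markers, which are in the same list, had mean levels of 7.16 on FLASH and 7.02 on CDR, against 6.37 on the non-irradiated array, and the part of red cell precursors in these values was not tested.

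Of 14 detected megakaryocyte genes, a group that Gata1, Fli1 and Runx1 control together, 9 read lower by any amount on FLASH and 11 on CDR, against 32.5% and 30.4% of detected genes. Tied were 4 of the 14 on FLASH and 2 on CDR, against 34.1% and 35% of detected genes. By size, 4 were at least 1.5-fold lower on FLASH and 3 on CDR, against 5.23% and 5.38%, 0 were at least 1.5-fold higher, and the medians were -0.29 and -0.36. Mmrn1, which encodes the platelet protein multimerin, was at -1.89 on FLASH and -1.95 on CDR, and Gp9, a subunit of the platelet receptor for von Willebrand factor, at -1.23 and -1.07. Thbs1, thrombospondin, did not reach the detection level on either irradiated array, and was at least 2.36-fold lower on FLASH and at least 2.44-fold lower on CDR. Selp, P-selectin, was at 0.18 and 0.28. The 7 measured megakaryocyte markers, part of the same list, had mean levels of 6.19 on FLASH and 6.21 on CDR, against 6.6, and their part was not tested.

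Mast cell and basophil genes, a group that depends on Gata2, pointed both ways. Of 11 detected, 3 were at least 1.5-fold higher on each irradiated array, while 2 were at least 1.5-fold lower on FLASH and 1 on CDR. Over all detected genes these shares were 3.55% and 3.19% upward and 5.23% and 5.38% downward. With an offset of 32 before the log, 2 genes were past 1.5-fold upward on FLASH and 1 on CDR. The 3 higher ones were the mast cell proteases Tpsb2, Mcpt4 and Cma1, each below detection in non-irradiated cells. Tpsb2 was at least 6.31-fold higher on FLASH and at least 3.34-fold higher on CDR, and Mcpt4 at least 1.96-fold and at least 1.29-fold higher, so that its bound on CDR is under 1.5-fold. Prss34, a basophil protease, was at -1.38 on FLASH and -2.71 on CDR, and Kit, the stem cell factor receptor, at -0.87 and -0.47. The 8 mast cell and basophil markers, all of them in the list, had mean levels of 6.54 on FLASH and 6.23 on CDR, against 6.32 on non-irradiated. Above the detection level were 7 of the 8 on FLASH, 7 on CDR and 5 on non-irradiated. The part of these cells was not tested.

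PU.1 target genes had a median of -0.11 on FLASH and 0.00 on CDR over 15 detected genes, beside Spi1 differences of -0.06 and 0.10. The integrin gene Itgam was at -1.35 on FLASH and -0.66 on CDR, and the Fc receptor gene Fcgr3 at 0.46 and 0.61. C/EBPα target genes had medians of 0.25 on FLASH and 0.46 on CDR over 11 detected genes. Past 1.5-fold upward lay 2 on FLASH and 3 on CDR, against 3.55% and 3.19% of detected genes, and 0 lay past it downward. Ms4a3, a gene of granulocyte-monocyte progenitors, was at 0.60 on FLASH and 0.88 on CDR, and Csf3r, the receptor for granulocyte colony-stimulating factor, at -0.28 and -0.26. The 7 neutrophil markers, of which Elane is also a C/EBPα target, had mean levels of 6.59 on FLASH and 6.39 on CDR, against 7.27 on non-irradiated. Of the 7, 5 were above the detection level on FLASH, 4 on CDR and 5 on non-irradiated. Elane itself was higher, at 11.21 on FLASH and 11.41 on CDR, against 11.03. The part of neutrophils in these values was not tested.

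**Figure D3:**
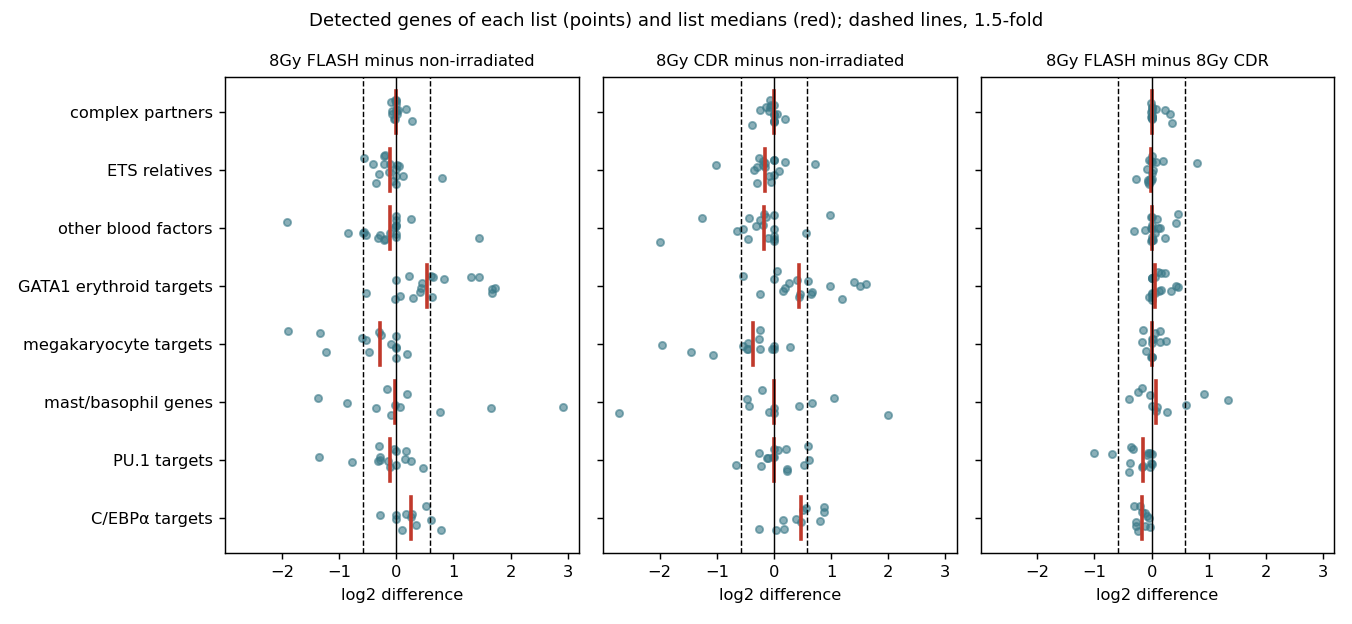
Log2 differences (x axis) of detected genes in 8 gene lists (rows) for the 3 comparisons named above the panels, with 1 point per gene, a red line at each list's median and dashed lines at 1.5-fold. GATA1 erythroid targets lie mostly to the right in the panels against the non-irradiated array (medians 0.53 and 0.45) and megakaryocyte genes mostly to the left (-0.29 and -0.36), while C/EBPα targets lie to the left of 0 between FLASH and CDR (-0.16).

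Set directly against each other, the irradiated arrays lay within 1.5-fold for each of the 10 factor genes. Of the 10, 0 were at least 1.5-fold higher or lower on FLASH than on CDR, where 1.83% of detected genes were higher and 0.771% lower by that much. Few detected genes passed that fold, so that a count of 0 in 10 does not set these genes apart. At 2-fold the count was also 0, against 0.838% higher and 0.142% lower, and the median difference was 0.00, as over all detected genes. By at least 0.32 log2 units, 1 gene was higher on FLASH (Gata2) and 0 were lower, against 3.87% and 3.29% of detected genes. Gata2 was at 0.33, and 3.77% of detected genes lay as high or higher. Gata1 was at 0.27, where 4.92% lay as high or higher, and Cebpa at -0.24, where 5.8% lay as low or lower. The 5th and 95th percentiles of detected genes were -0.26 and 0.26, and Gata2 and Gata1 lay above the upper one. Spi1 was at -0.15. Tal1 was at -0.11, Gfi1b at 0.07, Runx1 at -0.04 and Fli1 at 0.01, and the sign of Fli1 turned under median centring and under quantile normalisation.

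Genes downstream of Cebpa and Spi1 read slightly lower on FLASH than on CDR. By any amount, 11 of 11 detected C/EBPα target genes were lower on FLASH, with a median of -0.16, and 13 of 15 PU.1 target genes, with a median of -0.15, where 31.5% of detected genes were lower. Tied were 0 of the 11, 2 of the 15 and 43.2% of detected genes. By at least 1.5-fold, 0 of the 11 and 2 of the 15 were lower, against 0.771% of detected genes. Those 2 were Csf1r, the receptor for macrophage colony-stimulating factor, which read 5.58 on FLASH and 6.59 on CDR (-1.01), and Itgam at -0.68. Gfi1 was at -0.31 and Hp, haptoglobin, at -0.28. Csf3r stands in both lists. The 11 C/EBPα targets were lower under median centring, quantile normalisation and cyclic loess too, and 13 to 15 of the PU.1 targets were. An offset of 32 before the log cannot change a direction, and it left 1 PU.1 target at least 1.5-fold lower. The 5 monocyte markers, which include Csf1r, had mean levels of 6.98 on FLASH and 7.52 on CDR, and the 5 dendritic cell markers 7.24 on FLASH and 6.25 on CDR. The part of these cells in the values was not tested.

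GATA1 erythroid targets were higher on FLASH than on CDR for 12 of 18 by any amount, against 25.4% of detected genes, with a median of 0.06 and 0 at least 1.5-fold different. Tied were 5 of the 18 and 43.2% of detected genes. Under median centring, which moves tied genes below 0, 10 were higher and 8 lower. Klf1 was at 0.46 and Epor, the erythropoietin receptor, at 0.43. Ets1 was the one ETS relative at least 1.5-fold different, at 0.79. Among complex partners Cbfa2t3 was at 0.35 and Ssbp3, which binds LDB1, at 0.32. Of 11 detected mast cell and basophil genes, 3 were at least 1.5-fold higher on FLASH and 0 lower, against 1.83% and 0.771% of detected genes. Median centring and an offset of 32 before the log each left 2. Prss34 read 7.87 on FLASH and 6.53 on CDR, and Tpsb2 6.81 and 5.89.

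Protein-coding genes adjacent to the factor genes, in the gene order of GRCm38.p6, gave a comparison by position. Of 20 such genes 19 were measured, and 14 were detected against the non-irradiated array. Their median was 0.00 in both comparisons, with 6 of the 14 tied on FLASH and 7 on CDR. At least 1.5-fold lower were 1 on FLASH and 2 on CDR, against 5.23% and 5.38% of detected genes. Pdzk1ip1, next to Tal1, read 6.68 on FLASH and 6.24 on CDR, against 8.45 on the non-irradiated array, while Stil on the other side of Tal1 was 0.25 and 0.42 higher. Ets1, named above, adjoins Fli1. Beside Gata2, Rpn1, a subunit of the oligosaccharyltransferase, read 9.81 on both irradiated arrays, against 9.49 on the non-irradiated one, and beside Gata1 the deacetylase gene Hdac6 read 5.83 on all 3.

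**Figure D4:**
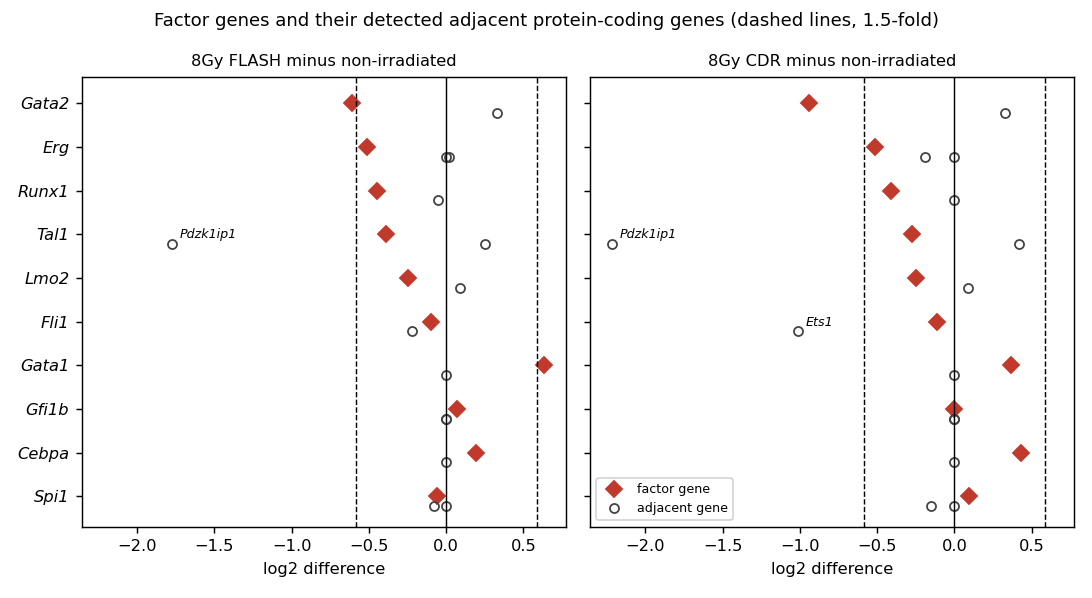
Log2 differences (x axis) of the 10 factor genes (red diamonds) and of their detected adjacent protein-coding genes (open circles), for 8Gy FLASH (left) and 8Gy CDR (right) minus non-irradiated, with dashed lines at 1.5-fold. Pdzk1ip1 beside Tal1 lies far to the left in both panels and Ets1 beside Fli1 on CDR only (-1.01), and the other adjacent genes lie within 1.5-fold.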

How the data were processed

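Per the labels' protocols, total RNA was turned into biotinylated cDNA with an Affymetrix whole-transcript kit. The deposited table holds the authors' log2 level of 25206 probe sets; the log base was taken from the range of values (1.23 to 13.3). The software named is Partek, per the submitters' processing notes; normalisation is not given in the sources used here. GEO's platform table named 23185 probe sets with 1 gene symbol each, 0 with several, and left 2021 unnamed. All 23185 symbols equalled those of the RefSeq table by Entrez identifier.

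Values were used as deposited, and the number of arrays limits their precision. The detection level was the 95th percentile of 1368 receptor genes on each array, and a tied gene counted if above either level. A fold against an array under its level is a lower bound. The members, the gene lists and the 1.5-fold call were chosen with earlier results of these data known. The call was set at 1.5-fold because transcription factor genes were known from them to differ mostly by less than 2-fold. Named genes were the 10 factors, Lyl1, Ldb1, Cbfb and Zfpm1, up to 2 genes per list and direction, and the 3 nearest in pattern to factors past 1.5-fold. Mpo, Hdac6, Hoxb5, Il7r and the Cd3 genes lie outside that rule and were named after their values were seen. Calculations used Python 3.11.15, pandas 2.3.3, R 4.3.3 and limma 3.58.1. The comparison of arrays alone was tested on simulated data, with changes larger than any seen in the 10 factor genes.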

Additional observations from a re-analysis of the deposited data

Results flagged for a closer look

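Spi1 lay on opposite sides of the non-irradiated array on the irradiated arrays, at -0.057 on FLASH and 0.096 on CDR (log2). With 1 array per group the difference was not tested, and both values are small.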

How the results depend on the processing

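The factor counts at 1.5-fold were the same under median centring, quantile normalisation and cyclic loess. An offset of 32 before the log left 1 gene on FLASH against non-irradiated, since Gata1 came to 0.58, just under the call. Gata2 on FLASH stood just past 1.5-fold, at -0.59 under median centring. At 2-fold the count was 0 in each comparison, and at a lower call of 0.32 log2 units it was 5 on FLASH and 5 on CDR against non-irradiated and 1 between FLASH and CDR. The medians of the 10 genes moved by less than 0.1, and means in their place did too. Among single factors, Gata1 on FLASH was the one whose call changed. The filters and the raising of dim values could not alter the factor values, since the 10 genes lie above the detection level. Scalings of the gene lists, added after seeing the data, kept the sign of the medians of the red cell, megakaryocyte and C/EBPα lists against non-irradiated; the offset left 7 red cell genes past 1.5-fold on FLASH and 6 on CDR, and 2 and 1 mast cell and basophil genes. The offset cannot change the direction of a single gene. Cyclic loess left 1 C/EBPα target past 1.5-fold upward on FLASH, and median centring and quantile normalisation each put 2 other blood factors past it on CDR. No paired analysis was possible because each group had 1 array. Arrays and groups cannot be told apart.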
